A study of Mus musculus with 18 samples.

Results

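The 10 genes of the integrated stress response and the unfolded protein response followed here, Atf4, Ddit3, Xbp1, Asns, Chac1, Trib3, Ppp1r15a, Gdf15, Hspa5 and Herpud1, were read in 18 bulk RNA sequencing libraries of infarcted mouse hearts. They were taken by symbol from a table of raw counts per gene, and all 10 were found among its 25230 symbols. The mice were male C57BL/6J animals whose left anterior descending coronary artery had been tied off, and every sample came from such a heart, 3 days after the ligation. The 6 groups with 3 libraries each, labelled as biological replicates, came from atria and from infarcted and non-infarcted parts of the left ventricle (LV) of mice given liraglutide, an agonist of the receptor for glucagon-like peptide 1, or PBS, the vehicle. The labels describe a sham operation, but sham hearts were not analysed here, so the non-infarcted LV is tissue of an infarcted heart and not healthy tissue. The dose and schedule of liraglutide, and whether libraries of different regions came from the same animal, is not given in the sources used here. Levels are CPM, the counts of a gene scaled by each library's total. Since no division by gene length was made, levels are compared for 1 gene between samples and not between genes.

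Cells meet a shortage of amino acids, misfolded protein in the endoplasmic reticulum (ER), haem loss or viral RNA with a common reaction: a kinase phosphorylates the translation factor eIF2 alpha, general protein synthesis slows, and the transcription factor ATF4 is made from a messenger RNA whose upstream reading frames favour it under these conditions. ATF4, often with its target CHOP (the product of Ddit3), turns on genes for amino acid supply, for glutathione breakdown and for the return of translation, while the ER sensors IRE1 and ATF6 turn on chaperones and degradation by way of spliced XBP1 and cleaved ATF6. In the heart these genes are known as responses to ischaemia, to hypertrophic load and to mitochondrial disease. Because ATF4 is set largely by translation and XBP1 by splicing, a messenger RNA level is a partial reading of the pathway, and gene counts cannot tell the spliced from the unspliced form of Xbp1.

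The regulatory letters that these pathways read were looked for in the promoter windows of RefSeq (GRCm38.p6, 250 bases before to 50 after each gene's start site), in which all 10 genes had an entry and Gdf15 had 2, giving 11 windows. The letters of 5 motifs were searched on both strands: the C/EBP-ATF response element read by ATF4 and CHOP (TGATGNAA), the cAMP response element read by CREB and ATF factors (TGACGTCA), the ER stress element (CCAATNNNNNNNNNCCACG), its shorter relative ER stress element II (ATTGGNCCACG) and the unfolded protein response element read by XBP1 and ATF6 (TGACGTGG). The cAMP and unfolded protein response elements share their first 6 letters, and both ER stress elements end in CCACG. Whether any factor binds at a match was not tested, and a match of letters alone does not make a gene a target. The stretches that hold a match are given to locate these letters. Each is 120 bases on the gene's own strand, 5′ to 3′, with the match in capitals, and a match on the opposite strand appears as its reverse complement. The stretches end at or before the RefSeq start site, except that of Trib3, whose match lies after it.
Hspa5, chr2:34771970-34772089, plus strand: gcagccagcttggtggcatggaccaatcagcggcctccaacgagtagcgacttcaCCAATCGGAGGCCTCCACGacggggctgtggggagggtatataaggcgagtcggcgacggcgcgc
Herpud1, chr8:94386293-94386412, plus strand: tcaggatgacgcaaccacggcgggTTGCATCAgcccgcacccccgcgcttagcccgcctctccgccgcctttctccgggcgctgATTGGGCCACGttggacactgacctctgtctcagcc
Asns, chr6:7693210-7693329, minus strand: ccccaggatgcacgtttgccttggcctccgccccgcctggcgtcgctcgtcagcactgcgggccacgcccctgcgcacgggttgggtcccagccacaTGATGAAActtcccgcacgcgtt
Trib3, chr2:152344031-152344150, minus strand: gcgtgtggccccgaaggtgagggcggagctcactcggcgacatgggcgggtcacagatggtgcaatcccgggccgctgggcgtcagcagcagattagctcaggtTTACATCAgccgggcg
Chac1, chr2:119350993-119351112, plus strand: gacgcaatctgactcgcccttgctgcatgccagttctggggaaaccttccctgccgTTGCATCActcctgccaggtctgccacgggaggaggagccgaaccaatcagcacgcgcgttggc
Ppp1r15a, chr7:45526269-45526388, minus strand: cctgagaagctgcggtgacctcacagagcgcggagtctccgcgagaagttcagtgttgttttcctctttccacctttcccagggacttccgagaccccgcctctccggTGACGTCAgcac

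The C/EBP-ATF response element was found in 4 of the 11 windows, those of Asns, Trib3, Chac1 and Herpud1, and in 3.97% of all 32817 RefSeq windows of this length. The cAMP response element was found in the window of Ppp1r15a and in 1.79% of all windows. The ER stress element was found in the window of Hspa5 and in 0.119% of all windows, and element II in that of Herpud1 and in 0.0366%. The unfolded protein response element, present in 0.676% of all windows, was in 0 of the 11. None of the 5 motifs was in these windows of Atf4, Ddit3, Xbp1 or Gdf15, which says only that these letters are not within these 300 bases.

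Library totals ran from 4280459 counts (infarcted LV, PBS, library 3) to 21853482 (atria, liraglutide, library 3), with a median of 11586459.5. A count of 3, taken as the floor, equals 0.137 to 0.701 CPM, which touches only Gdf15 in the atria. The atria and the LV matched their labels. The summed level of 4 atrial cardiomyocyte markers (Myl7, Myl4, Sln, Nppa) was 37123 to 52338 CPM in the atria and at most 521 CPM in the LV. That of 4 ventricular markers (Myl2, Myl3, Myh7, Lbh) was 527 to 2065 CPM in the atria and 13031 to 19021 CPM in the LV. Of these, Myh7 was not lower in the atria than in the infarcted LV with PBS (log2 difference 0.70, SE 0.46). The label of infarcted or non-infarcted LV was not checked by these markers. Among atrial libraries, the ventricular myosin light chain Myl2 stood at 275, 8.30 and 924 CPM with liraglutide and at 8.82, 5.94 and 2.08 CPM with PBS. The fat markers Adipoq and Ucp1 stood at 79.2 and 88.8 CPM in PBS library 2, and Adipoq at no more than 4.84 CPM in the other atrial libraries. Results that rest on atrial liraglutide library 3 or PBS library 2 are therefore also given without them where that changes a call.

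**Figure D1:**
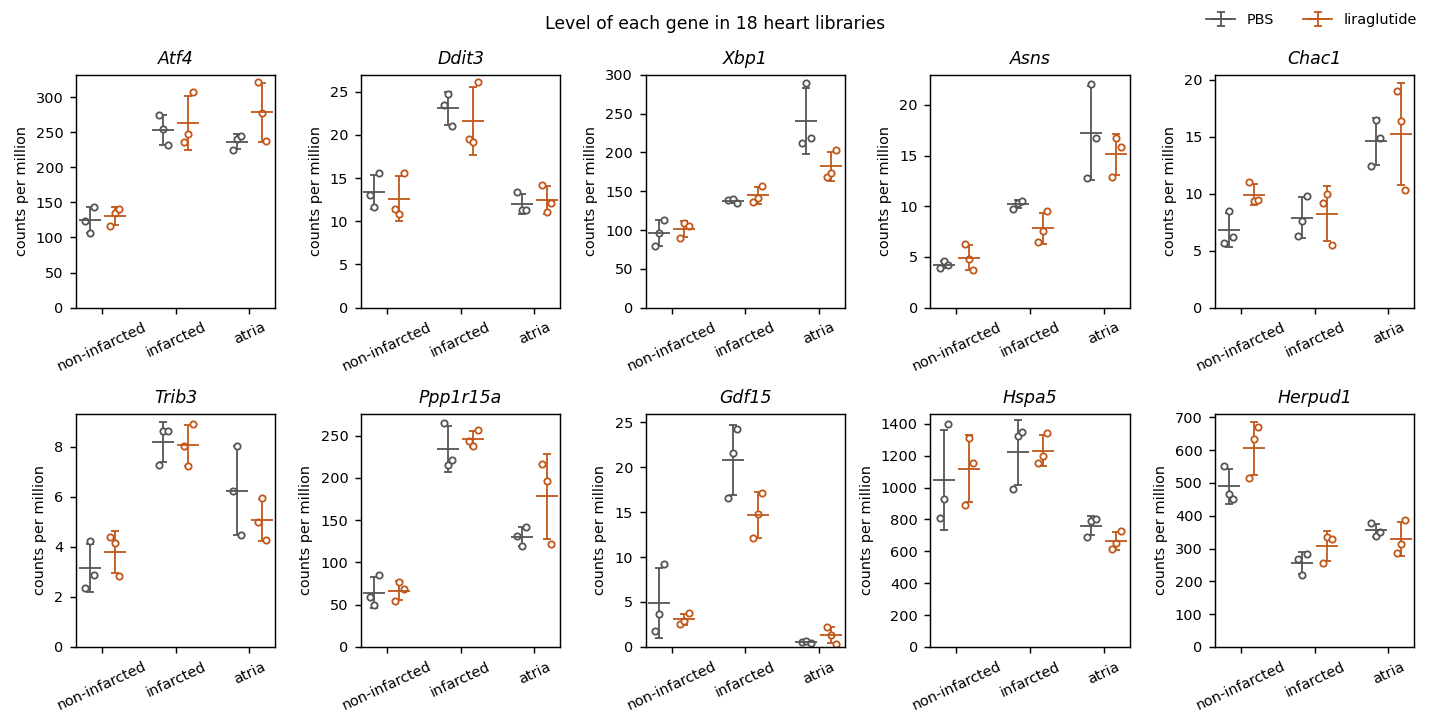
Level of each gene in CPM (vertical axes, from 0) in non-infarcted LV, infarcted LV and atria; circles are single libraries, horizontal bars the mean and vertical bars the SD over n = 3, grey for PBS and orange for liraglutide. Gdf15, Ppp1r15a, Trib3 and Ddit3 stand highest in the infarcted LV, Asns, Chac1 and Xbp1 in the atria, and Herpud1 in the non-infarcted LV.

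The 10 genes did not share 1 order of regions. With PBS, the mean level was highest in the infarcted LV for Atf4, Ddit3, Trib3, Ppp1r15a, Gdf15 and Hspa5, highest in the atria for Xbp1, Asns and Chac1, and highest in the non-infarcted LV for Herpud1. With liraglutide the highest region was the same for 9 genes, while for Atf4 the atria moved ahead of the infarcted LV, with overlapping libraries under both treatments. Neighbours in these orders that overlapped with PBS were infarcted LV and atria for Atf4 and Trib3, non-infarcted LV and atria for Ddit3, and infarcted and non-infarcted LV for Chac1 and Hspa5. The ratio of the highest to the lowest regional mean with PBS was 36.3 for Gdf15, 4.07 for Asns, 3.63 for Ppp1r15a and between 1.60 and 2.60 for the other 7 genes.

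The infarcted LV was compared with the non-infarcted LV first, to see which of these stress genes differ between injured and remote ventricle of the same kind of heart. With PBS, 7 of the 10 genes were higher in the infarcted LV at an adjusted p under 0.05 and Herpud1 was lower, against 25.7% of all tested genes higher and 21.7% lower. With liraglutide the same 7 were higher and Herpud1 was again lower, against 27.3% and 22.4% of all tested genes. The median log2 difference over the 10 genes was 0.86 with PBS and 0.69 with liraglutide, and -0.02 over all tested genes under both treatments. Chac1 and Hspa5 did not pass the test under either. In bulk tissue, fewer cells of a type and less RNA per cell cannot be told apart, and the cell types of these regions differ: the summed level of 5 fibroblast markers was 1596 to 1898 CPM in infarcted and 620.1 to 798 CPM in non-infarcted LV with PBS, that of 5 monocyte and macrophage markers 276 to 356 against 134 to 172 CPM, that of 4 endothelial markers 1640 to 1810 against 841 to 879 CPM, and that of 4 general cardiomyocyte markers 54089 to 58409 against 69112 to 77253 CPM. Their part in the results was not tested.

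Atf4, which encodes the central transcription factor of the integrated stress response (ENSMUSG00000042406.8, chr15:80255184-80257541, plus strand, protein-coding, in GENCODE for GRCm38), stood at 124, 106 and 144 CPM in the 3 non-infarcted libraries with PBS and at 274, 255 and 232 CPM in the 3 infarcted ones. The groups did not overlap, and the level was 1.96-fold higher in the infarcted LV (log2 difference 0.97, SE 0.13, adjusted p = 0.000276). With liraglutide it stood at 116, 135 and 141 against 236, 248 and 307 CPM, a log2 difference of 0.99 (SE 0.11, adjusted p = 2.64e-06). The size of the difference was thus nearly the same in both sets of libraries, which share no sample.

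Ddit3, which encodes the pro-apoptotic partner factor CHOP (ENSMUSG00000025408.15, chr10:127290774-127296288, plus strand), stood at 13.0, 11.7 and 15.6 CPM in non-infarcted and at 23.5, 24.8 and 21.0 CPM in infarcted LV with PBS. The log2 difference was 0.76 under both treatments (SE 0.14 and adjusted p = 0.000367 with PBS, SE 0.16 and adjusted p = 0.00108 with liraglutide), and the groups did not overlap under either. Its annotation overlaps the methionyl-tRNA synthetase gene Mars1 (Mars in GENCODE) on the opposite strand by 68 bases. GENCODE also holds a further Ddit3 entry on the plus strand, ENSMUSG00000116429.1 (chr10:127290829-127293753), which lies inside the first. The counts are by symbol, and how both entries entered them was not examined.

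Xbp1, which encodes the transcription factor of the IRE1 branch (ENSMUSG00000020484.18, chr11:5520659-5525893, plus strand), stood at 79.6, 96.2 and 114 CPM in non-infarcted and at 139, 140.3 and 135 CPM in infarcted LV with PBS. The groups did not overlap, but the difference was the smallest of the 8 that passed: 0.46 on the log2 scale with PBS (SE 0.13, adjusted p = 0.0154) and 0.49 with liraglutide (SE 0.09, adjusted p = 0.000476). With PBS the Xbp1 difference missed the threshold without infarcted library 1 (adjusted p = 0.0557) or non-infarcted library 2 (adjusted p = 0.0619).

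Among the target genes of ATF4 and CHOP, Asns, which encodes asparagine synthetase (ENSMUSG00000029752.12, chr6:7675169-7693254, minus strand), stood at 3.88, 4.61 and 4.20 CPM in non-infarcted and at 9.77, 10.3 and 10.5 CPM in infarcted LV with PBS. The libraries of each group lay close together and the level was 2.33-fold higher in the infarcted LV (log2 difference 1.22, SE 0.17, adjusted p = 2.95e-05). With liraglutide the groups, 6.30, 4.78 and 3.75 against 6.45, 7.51 and 9.50 CPM, nearly touched, and the log2 difference was 0.62 (SE 0.20, adjusted p = 0.0176). The Asns difference with liraglutide missed the threshold without infarcted library 3 (adjusted p = 0.0758), non-infarcted library 2 (0.0624) or non-infarcted library 3 (0.0747).

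Trib3, which encodes a pseudokinase that restrains ATF4 and AKT (ENSMUSG00000032715.9, chr2:152337422-152344032, minus strand), stood at 2.35, 4.23 and 2.88 CPM in non-infarcted and at 7.27, 8.63 and 8.64 CPM in infarcted LV with PBS. The lowest infarcted library lay above the highest non-infarcted one, and the level was 2.54-fold higher with PBS (log2 difference 1.35, SE 0.22, adjusted p = 0.00015) and 2.07-fold higher with liraglutide (1.05, SE 0.19, adjusted p = 0.000278). Chac1, which encodes an enzyme that degrades glutathione (ENSMUSG00000027313.3, chr2:119351229-119354381, plus strand), has the same element in its promoter window as Asns, Trib3 and Herpud1, printed above. It stood at 5.70, 8.47 and 6.23 CPM in non-infarcted and at 6.28, 7.61 and 9.81 CPM in infarcted LV with PBS, so the groups overlapped. Its log2 difference was 0.13 with PBS (SE 0.20, adjusted p = 0.627) and -0.26 with liraglutide (SE 0.19, adjusted p = 0.271).

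Ppp1r15a encodes GADD34, the subunit that directs protein phosphatase 1 to eIF2 alpha and so lets translation resume (ENSMUSG00000040435.12, chr7:45522916-45526268, minus strand). It stood at 59.4, 49.0 and 84.6 CPM in non-infarcted and at 265, 215 and 221 CPM in infarcted LV with PBS. All infarcted libraries lay far above all non-infarcted ones, and the level was 3.5-fold higher (log2 difference 1.81, SE 0.27, adjusted p = 0.00428). With liraglutide, 54.5, 76.9 and 68.3 CPM stood against 244, 238 and 257 CPM, a 3.64-fold difference (1.86, SE 0.11, adjusted p = 1.38e-08). Its annotation overlaps Tulp2 on the opposite strand by 717 bases, but Tulp2 had no more than 5 counts in any library.

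Gdf15, which encodes a secreted stress cytokine of the TGF-beta family (ENSMUSG00000038508.7, chr8:70629393-70632456, minus strand), showed the largest difference of the 10 genes between these regions. It stood at 1.76, 3.67 and 9.23 CPM in non-infarcted and at 16.5, 21.5 and 24.3 CPM in infarcted LV with PBS, with non-infarcted library 3 well above the other two. The level was 4.49-fold higher (log2 difference 2.17, SE 0.62, adjusted p = 0.0448), and this call was lost in 4 of the 6 fits that left out a library: the adjusted p of Gdf15 was 0.0958, 0.133 and 0.106 without infarcted library 1, 2 or 3 and 0.119 without non-infarcted library 2. It was also lost with no filter on low counts (0.0641). The Gdf15 call was kept without non-infarcted library 1 (log2 difference 1.63, adjusted p = 0.029) or library 3 (2.97, adjusted p = 1.29e-07). With liraglutide, where 2.50, 2.93 and 3.75 CPM stood against 12.1, 14.8 and 17.2 CPM, the level was 4.71-fold higher (2.24, SE 0.19, adjusted p = 2.14e-07).

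Hspa5, which encodes BiP, the main HSP70 chaperone of the ER lumen (ENSMUSG00000026864.13, chr2:34771970-34777547, plus strand), stood at 809.8, 929 and 1402 CPM in non-infarcted and at 989, 1323 and 1351 CPM in infarcted LV with PBS. The highest non-infarcted library lay above every infarcted one, and the log2 difference was 0.15 (SE 0.29, adjusted p = 0.706). Without that library, non-infarcted library 3, the Hspa5 difference was 0.46 and passed (SE 0.11, adjusted p = 0.00414). The same library held the highest levels of its group for Atf4, Ddit3, Xbp1, Ppp1r15a and Gdf15. It also held the highest for Atf3, 269 against 97.5 and 58.4 CPM, and for the cytosolic heat shock gene Hspa1a, 82.1 against 9.17 and 17.1 CPM, a gene singled out after its values were seen. With liraglutide the log2 difference of Hspa5 was 0.11 (SE 0.12, adjusted p = 0.466).

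Herpud1, which encodes a membrane component of ER-associated degradation (ENSMUSG00000031770.16, chr8:94386438-94395377, plus strand), was lower in the infarcted LV, the reverse of the others that passed. With PBS it stood at 550.4, 467 and 452 CPM in non-infarcted and at 269, 219 and 283 CPM in infarcted LV, without overlap. The level fell by 0.99 on the log2 scale, to 0.505 of that in the non-infarcted LV (SE 0.11, adjusted p = 7.41e-06). With liraglutide, 516, 633 and 671 CPM stood against 256, 337 and 330.1 CPM (a fold of 0.5, SE 0.13 on the log2 scale, adjusted p = 4.32e-05). An antisense gene, Gm15890, overlaps it by 535 bases, and the strand setting of the counting is not given in the sources used here.

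**Figure D2:**
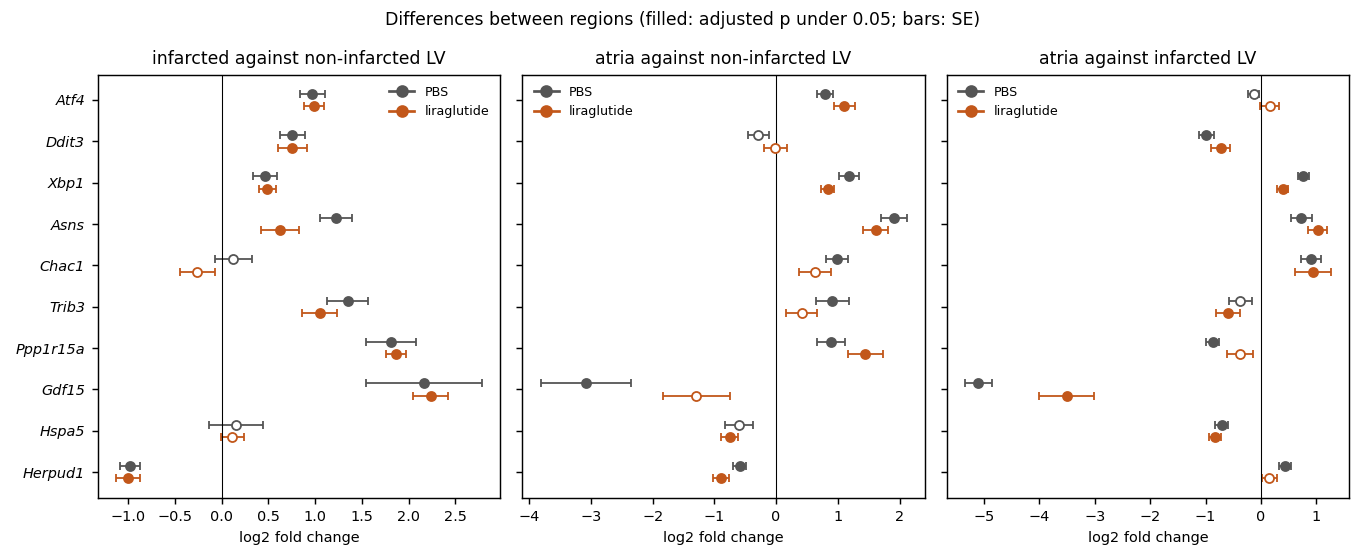
Log2 fold changes of the 10 genes between regions, with PBS in grey and liraglutide in orange; bars are the SE of the edgeR estimate, filled points have an adjusted p under 0.05, and each panel has its own horizontal range. In the left panel 7 genes have filled points right of 0 under both treatments, and Herpud1 has filled points left of 0. Hspa5 lies right of 0 there with open points. For the atria against the infarcted LV, Asns, Chac1 and Xbp1 have filled points right of 0 under both treatments.

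The atria are not infarcted by this ligation, and the comparison with non-infarcted LV asks how the same genes differ between chambers. With PBS, 6 of the 10 genes (Atf4, Xbp1, Asns, Chac1, Trib3, Ppp1r15a) were higher in the atria and 2 (Gdf15, Herpud1) lower, against 26.1% of all tested genes higher and 25.7% lower. With liraglutide, 4 (Atf4, Xbp1, Asns, Ppp1r15a) were higher and 2 (Hspa5, Herpud1) lower, against 24.6% and 22.9%. This comparison shares its non-infarcted libraries with the one above. Cell markers differed here too, with PBS: the summed level of 4 neutrophil markers was 185 to 632 CPM in the atria and 20.04 to 39.4 CPM in the non-infarcted LV, that of 4 epicardial and mesothelial markers 160.5 to 236 against 9.31 to 10.99 CPM, and that of 4 plasma cell markers 19.2 to 30.3 against 5.64 to 7.76 CPM. Their part in the results was not tested.

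Asns stood furthest above the non-infarcted LV. It reached 12.8, 22.1 and 16.8 CPM in the atria with PBS, every library above all LV libraries, and was 3.75-fold higher than in the non-infarcted LV (log2 difference 1.91, SE 0.21, adjusted p = 1.74e-05). With liraglutide, at 12.9, 16.7 and 15.8 CPM, it was 3.06-fold higher (1.61, SE 0.20, adjusted p = 0.000131). The infarcted LV lay between: atrial Asns was 1.66-fold higher than infarcted with PBS (0.73, SE 0.18, adjusted p = 0.00511) and 2.03-fold with liraglutide (1.02, SE 0.18, adjusted p = 0.0012).

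Xbp1 had its highest levels in the atria as well, 213, 290.0 and 219 CPM with PBS, and library 2, which holds the fat markers, was the highest. It was 2.27-fold higher than in the non-infarcted LV (log2 difference 1.18, SE 0.16, adjusted p = 0.000215) and 1.71-fold higher than in the infarcted LV (0.77, SE 0.10, adjusted p = 6.94e-05). With liraglutide, at 169, 174 and 203 CPM, the log2 differences were 0.84 (SE 0.10, adjusted p = 0.000153) and 0.39 (SE 0.10, adjusted p = 0.00881). The latter missed the threshold without infarcted liraglutide library 1 (adjusted p = 0.0567 for Xbp1).

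Chac1, which did not differ detectably between the LV regions, stood at 12.4, 16.5 and 14.8 CPM in the atria with PBS. All 3 values lay above the whole LV, and the gene was 1.98-fold higher than in the non-infarcted LV (log2 difference 0.98, SE 0.18, adjusted p = 0.000798) and 1.86-fold higher than in the infarcted LV (0.90, SE 0.18, adjusted p = 0.0013). With liraglutide the atrial libraries spread to 19.1, 16.4 and 10.3 CPM. Against non-infarcted LV the log2 difference was then 0.63 and missed the threshold (SE 0.26, adjusted p = 0.0774), but without atrial library 3, which carries ventricular Myl2, it was 0.92 for Chac1 (SE 0.14, adjusted p = 3.73e-05). Against infarcted LV it was 0.94 (SE 0.33, adjusted p = 0.0447), a Chac1 call that was lost without atrial library 1 (0.124) or 2 (0.105), without infarcted library 1 (0.0963), 2 (0.0578) or 3 (0.13), and with no filter on low counts (0.0782).

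Atf4 in the atria, at 225, 241 and 245 CPM with PBS, was 1.73-fold higher than in the non-infarcted LV (log2 difference 0.79, SE 0.13, adjusted p = 0.000461) and overlapped the infarcted LV (-0.13, SE 0.09, adjusted p = 0.269). With liraglutide, at 322, 277 and 237 CPM, it was 2.15-fold higher than in the non-infarcted LV (1.11, SE 0.17, adjusted p = 0.000582), and against the infarcted LV the log2 difference was 0.16 (SE 0.17, adjusted p = 0.478). Without atrial liraglutide library 3 that last Atf4 difference was 0.33 and passed (adjusted p = 0.036). Ddit3 stood at 13.4, 11.3 and 11.3 CPM with PBS, overlapping the non-infarcted LV (-0.29, SE 0.17, adjusted p = 0.169) and 0.505 of the infarcted level (-0.99, SE 0.14, adjusted p = 7.64e-05). With liraglutide its log2 differences were -0.01 (SE 0.19, adjusted p = 0.961) and -0.73 (SE 0.17, adjusted p = 0.00584).

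Ppp1r15a stood between the LV regions, at 131, 119 and 142 CPM in the atria with PBS. It was 1.85-fold higher than in the non-infarcted LV (log2 difference 0.88, SE 0.23, adjusted p = 0.0145), a Ppp1r15a call that was lost without atrial library 1 (0.0742), atrial library 3 (0.0533) or non-infarcted library 1 (0.0531). It was lower than in the infarcted LV (-0.87, SE 0.12, adjusted p = 7.05e-05). With liraglutide the log2 differences were 1.44 against non-infarcted LV (SE 0.28, adjusted p = 0.00451) and -0.38 against infarcted LV (SE 0.24, adjusted p = 0.243).

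Trib3 lay at 6.22, 8.02 and 4.47 CPM in the atria with PBS, again between the LV regions. Against non-infarcted LV the log2 difference was 0.91 (SE 0.27, adjusted p = 0.0141), and the Trib3 call was lost without atrial library 2 (0.0623) or non-infarcted library 1 (0.079). With liraglutide it was 0.41 (SE 0.25, adjusted p = 0.198), or 0.60 for Trib3 without atrial library 3 (adjusted p = 0.0305). Against infarcted LV it was -0.37 with PBS (SE 0.21, adjusted p = 0.148), passing only without atrial library 2 (-0.56, adjusted p = 0.0495 for Trib3), and -0.60 with liraglutide (SE 0.21, adjusted p = 0.0457). That last Trib3 call was lost with DESeq2 (0.0595) and without atrial library 1 (0.0713) or 3 (0.0851) or infarcted library 1 (0.104), 2 (0.085) or 3 (0.13).

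Gdf15 was nearly silent in the atria. It had 7, 13 and 3 counts with PBS (0.551, 0.690 and 0.479 CPM) and 30, 20 and 8 counts with liraglutide (2.17, 1.34 and 0.366 CPM). The level in the infarcted LV was 34.4-fold higher than in the atria with PBS (log2 difference -5.11 for atria against infarcted LV, SE 0.24, adjusted p = 1.06e-08) and 11.4-fold higher with liraglutide (-3.51, SE 0.50, adjusted p = 0.00081). Against non-infarcted LV the difference was -3.09 with PBS (SE 0.73, adjusted p = 0.00943), and this Gdf15 call was lost without atrial library 1 (0.0697) or 2 (0.0567). With liraglutide it was -1.29 and missed the threshold (SE 0.55, adjusted p = 0.0835), but passed for Gdf15 with DESeq2 (0.049) and without atrial library 1 (-1.95, adjusted p = 0.0151).

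The 2 ER genes were both lower in the atria than in the non-infarcted LV with liraglutide. Hspa5 stood at 692, 789 and 804 CPM in the atria with PBS, every library under all LV libraries, and at 614, 653 and 726 CPM with liraglutide. Against infarcted LV it was lower by 0.71 on the log2 scale with PBS (SE 0.12, adjusted p = 0.000344) and by 0.83 with liraglutide (SE 0.11, adjusted p = 0.000276). Against non-infarcted LV the difference was -0.75 with liraglutide (SE 0.14, adjusted p = 0.00165). With PBS it was -0.60 and missed the threshold (SE 0.23, adjusted p = 0.0585). With the replicate number as a block it was -0.55 for Hspa5 and passed (SE 0.12, adjusted p = 0.00392), and it also passed with DESeq2 (0.00383), with all 18 libraries in the fit (0.0158) and without non-infarcted library 1 (0.0154).

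Herpud1 in the atria stood at 378, 338 and 350.0 CPM with PBS and at 286, 314 and 388 CPM with liraglutide, under every non-infarcted library. It was lower than in the non-infarcted LV by 0.59 on the log2 scale with PBS (SE 0.10, adjusted p = 0.000601) and by 0.89 with liraglutide (SE 0.12, adjusted p = 0.000306). Against the infarcted LV it was higher with PBS (0.44, SE 0.11, adjusted p = 0.00612), while the difference with liraglutide was 0.15 (SE 0.13, adjusted p = 0.393). Over the 10 genes, 4 (Xbp1, Asns, Chac1, Herpud1) were higher and 4 (Ddit3, Ppp1r15a, Gdf15, Hspa5) lower in atria than in infarcted LV with PBS, against 26.2% and 26.1% of all tested genes. With liraglutide 3 (Xbp1, Asns, Chac1) were higher and 4 (Ddit3, Trib3, Gdf15, Hspa5) lower, against 22.1% and 21.2%, and leaving out infarcted liraglutide library 1 reduced these 7 calls to 4. Cell markers differed between these regions with PBS as well: the summed level of 4 smooth muscle and pericyte markers was 282 to 313 CPM in the atria and 1700 to 1853 CPM in the infarcted LV (729 to 898 CPM in the non-infarcted LV), that of the endothelial markers 909 to 955 against 1640 to 1810 CPM, that of the fibroblast markers 712 to 1061 against 1596 to 1898 CPM, and that of the neutrophil markers 185 to 632 against 32.7 to 120 CPM. Their part in the results was not tested.

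Liraglutide was then compared with PBS within each region, the question in the study's title. None of the 10 genes passed in any region by edgeR's quasi-likelihood test or by DESeq2. Few genes of any kind did: edgeR called 0.00739% of tested genes in the atria, 0% in the infarcted LV and 0% in the non-infarcted LV, and DESeq2 called 118, 4 and 2 genes. At an unadjusted p under 0.05, 1 of 9 tested genes differed in the atria (Xbp1), 3 of 10 in the infarcted LV (Asns, Gdf15, Herpud1) and 2 of 10 in the non-infarcted LV (Chac1, Herpud1), against 6.86, 5.24 and 4.34% of all tested genes. Groups of libraries that did not overlap were found for Xbp1 in the atria, Asns in the infarcted LV and Chac1 in the non-infarcted LV, where 14.9, 9.69 and 8.96% of all tested genes did the same.

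In the atria, Xbp1 stood at 213, 290.0 and 219 CPM with PBS and at 169, 174 and 203 CPM with liraglutide. Every liraglutide library lay under every PBS library, and the log2 difference was -0.30 (SE 0.12, adjusted p = 0.689). Ppp1r15a stood at 131, 119 and 142 CPM with PBS and at 217, 196 and 121 CPM with liraglutide, so that liraglutide libraries 1 and 2 lay above all PBS libraries and library 3 among them (0.57, SE 0.25, adjusted p = 0.744). Without liraglutide library 3 the difference of Ppp1r15a was 0.83 and passed (SE 0.12, adjusted p = 0.0226), and without both that library and PBS library 2 it was 0.74 and passed (SE 0.12, adjusted p = 0.0318), the only call among the 10 genes in the comparisons of liraglutide with PBS under the alternatives run. Liraglutide library 1, where Myl2 stood at 275 CPM, remained in both of these fits. Both fits also called many more genes of any kind than the main fit did, with the counts given in the closing section.

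The order of the 3 atrial liraglutide libraries differed between genes. Atf4 stood at 322, 277 and 237 CPM against 225, 241 and 245 CPM with PBS (log2 difference 0.35, SE 0.16, adjusted p = 0.744). Atf3, an ATF family factor, stood at 732, 355 and 113 CPM against 81.5, 77.9 and 117 CPM. Hspa1a, the heat shock gene named above, stood at 2061, 956 and 166 CPM against 46.1, 20.6 and 67.2 CPM. In Ppp1r15a and these 3 genes, of which Atf3 and Hspa1a were chosen after their values were seen, liraglutide library 1 was the highest and library 3 the lowest of the group. Chac1 and Gdf15 ran in the same order, while Xbp1, Hspa5 and Herpud1 ran in the reverse order, with Hspa5 at 614, 653 and 726 CPM and Herpud1 at 286, 314 and 388 CPM. No test was made of these orders. Whether Myl2 marks ventricular tissue in libraries 1 and 3, and what part such tissue has in these orders, was not tested. Of the other ventricular markers, Myl3 and Lbh had log2 differences of 2.16 and 0.92 for liraglutide in the atria, and Myh7 of -0.23, none of which passed. Gdf15 was too low for a test in the atria. The other atrial members had log2 differences between -0.22 (Trib3) and 0.18 (Chac1), each smaller in size than its SE.

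In the infarcted LV, Asns stood at 9.77, 10.3 and 10.5 CPM with PBS and at 6.45, 7.51 and 9.50 CPM with liraglutide. The groups did not overlap, and the log2 difference was -0.38 (SE 0.17, adjusted p = 0.939). Gdf15 stood at 16.5, 21.5 and 24.3 CPM with PBS and at 12.1, 14.8 and 17.2 CPM with liraglutide, overlapping in 1 library (-0.47, SE 0.15, adjusted p = 0.784). Herpud1 stood at 269, 219 and 283 against 256, 337 and 330.1 CPM (0.28, SE 0.13, adjusted p = 0.941). The other 7 genes had log2 differences between -0.11 (Ddit3) and 0.16 (Chac1), with an SE of at most 0.23.

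In the non-infarcted LV, Chac1 stood at 5.70, 8.47 and 6.23 CPM with PBS and at 10.997, 9.36 and 9.42 CPM with liraglutide. All liraglutide libraries lay above all PBS libraries, and the log2 difference was 0.54 (SE 0.16, adjusted p = 0.999). Herpud1 stood at 550.4, 467 and 452 against 516, 633 and 671 CPM, the same direction as in the infarcted LV (0.29, SE 0.11, adjusted p = 0.999). The spread was widest for Gdf15, at 1.76, 3.67 and 9.23 CPM with PBS and 2.50, 2.93 and 3.75 CPM with liraglutide, and its log2 difference of -0.58 had an SE of 0.67.

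**Figure D3:**
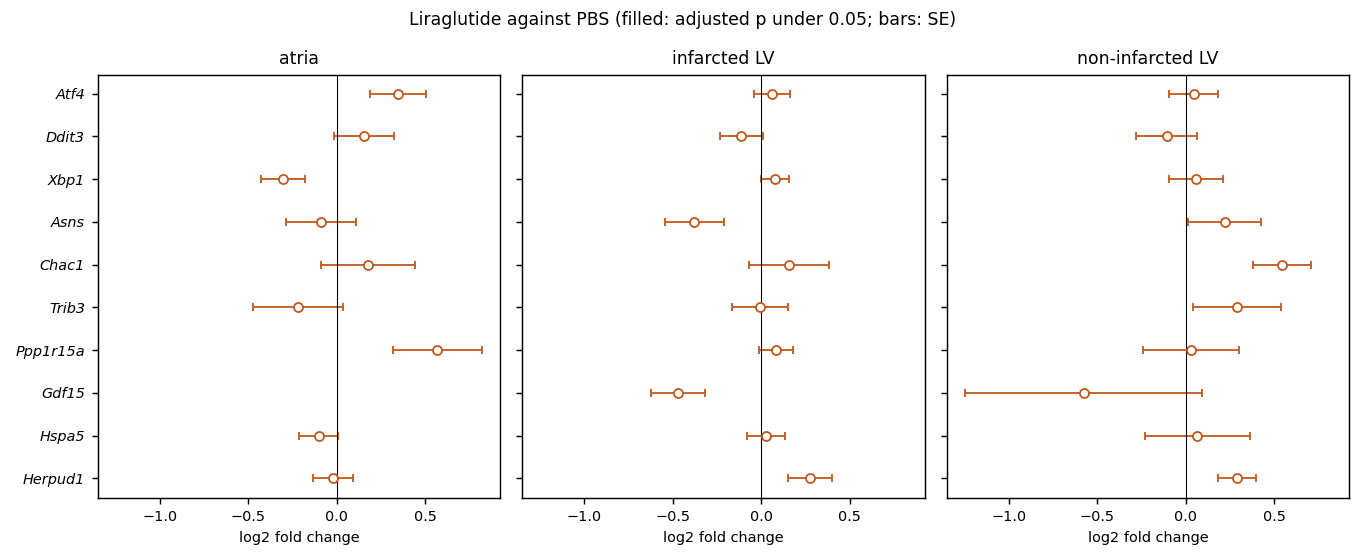
Log2 fold changes of the 10 genes with liraglutide against PBS in each region, on a shared horizontal axis; bars are the SE of the edgeR estimate, and filled points would have an adjusted p under 0.05. All points are open; Gdf15 was not tested in the atria, and its bar is the widest in the non-infarcted LV.

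Whether the effect of liraglutide differed between regions was tested as a contrast in a fit of all 18 libraries. None of the 10 genes passed in any of the 3 contrasts by edgeR, where 0% of 13920 tested genes passed for atria minus non-infarcted LV, 0% for infarcted minus non-infarcted LV and 0% for atria minus infarcted LV, and 0 of the 10 passed by DESeq2, which called 54, 0 and 31 genes. At an unadjusted p under 0.05, 0, 0 and 1 of the 10 differed, against 5.39, 1.25 and 6.49% of all tested genes. That 1 was Xbp1, whose difference was lower in the atria than in the infarcted LV by 0.37 on the log2 scale (SE 0.18, adjusted p = 0.752). For Asns the contrast of infarcted minus non-infarcted LV was -0.59 (SE 0.30, adjusted p = 1).

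Other genes of these pathways were read from 10 lists with 100 genes, each named here by its members with the smallest p. Between infarcted and non-infarcted LV with PBS, 37 of 96 tested pathway genes were higher and 19 lower, with a median log2 difference of 0.17, and with liraglutide 42 of 97 were higher and 19 lower, with a median of 0.19. Over all tested genes the shares were the 25.7 and 21.7%, and 27.3 and 22.4%, given above. The lists differed among themselves more than this total shows.

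The list of stress transcription factors holds ATF and C/EBP genes (Atf3, Atf5, Cebpb, Cebpg, Cebpd) together with Nupr1 and Jdp2. All 7 were higher in the infarcted LV under both treatments, with a median log2 difference of 1.30 with PBS and 1.15 with liraglutide. Nupr1, a stress-induced chromatin cofactor, was higher by 2.09 (SE 0.17, adjusted p = 2.01e-07), Jdp2 by 1.30, Cebpd by 1.33 and Atf5 by 0.82. Among ATF4 targets that carry amino acids into cells, 4 of 6 tested genes were higher with PBS and 7 of 7 with liraglutide. They included Slc1a4 (1.43 with PBS), Slc7a5 (0.89) and Slc3a2 (0.48), the last 2 forming the large neutral amino acid transporter LAT1. Amino acid synthesis divided: Phgdh, the entry enzyme of serine synthesis, was higher by 1.86 and Aldh18a1 of proline synthesis by 0.74, while the transaminases Got1 and Gpt2 were lower by 0.41 and 0.46. Of the 10 cytosolic aminoacyl-tRNA synthetases listed as ATF4 targets, 0 were higher and 1 (Lars, -0.22) lower with PBS by edgeR, 2 differed at an unadjusted p under 0.05, and DESeq2 called 0.

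Of 17 ER chaperones and folding enzymes, a list that leaves out Hspa5, 9 were higher and 0 lower with PBS, with a median of 0.47, and 13 were higher and 1 (Dnajb9) lower with liraglutide, with a median of 0.38. Creld2 was higher by 0.75 (SE 0.14, adjusted p = 0.000393), Dnajc3 by 0.47, the disulfide isomerase P4hb by 0.39 and Txndc5 by 0.43. Genes of ER-associated degradation, to which Herpud1 belongs, did not move 1 way: with PBS 1 of 11 was higher (Edem1, by 1.20) and 3 lower (Derl2 by 0.41, Erlec1 by 0.36, Vcp by 0.22). Of the ER sensors, Creb3l1 and Creb3l2 were higher by 1.36 and 0.92 and Atf6 lower by 0.53. Of 7 mitochondrial chaperones and proteases 0 were higher and 5 lower with PBS by edgeR, led by Dnaja3 (-0.46) and Lonp1 (-0.38), where DESeq2 called 0 higher and 3 lower.

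Stress effectors and secreted factors gave 6 higher and 2 lower of 9, with the death receptor gene Tnfrsf10b higher by 2.42 and Gadd45a by 1.48, Bbc3 by 1.15, and Vldlr lower by 0.60. The list around eIF2, which holds the 4 eIF2 alpha kinases, Ppp1r15b, the alpha subunit and the 5 subunits of its exchange factor eIF2B, gave 3 higher and 4 lower of 11. Ppp1r15b, the constitutive partner of Ppp1r15a, was higher by 0.44, against 1.81 for Ppp1r15a, and Eif2b4, Eif2ak1 and Eif2b1 were lower by 0.50, 0.43 and 0.32.

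**Figure D4:**
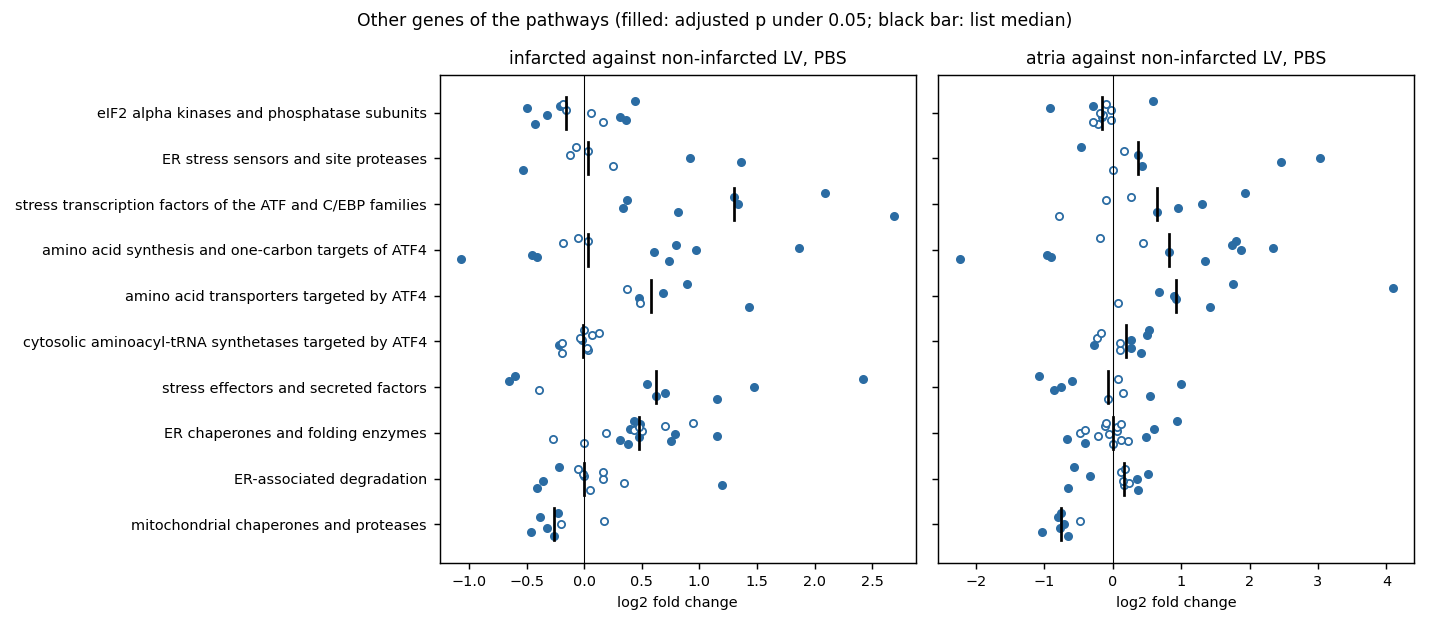
Log2 fold changes (horizontal axes, own range in each panel) of the tested genes in the 10 pathway lists with PBS, infarcted against non-infarcted LV on the left and atria against non-infarcted LV on the right; each point is a gene, filled where its adjusted p is under 0.05, and black bars are list medians. All 7 genes of the list named for the ATF and C/EBP families, which also holds Nupr1 and Jdp2, are filled and right of 0 on the left. On the right, 6 of 7 mitochondrial chaperones and proteases are filled and left of 0.

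Between atria and non-infarcted LV with PBS, 34 of 97 pathway genes were higher and 22 lower, with a median of 0.08, against 26.1 and 25.7% of all tested genes. In the lists of amino acid supply, 6 of 7 transporters were higher and 0 lower by edgeR and by DESeq2, with a median of 0.92, and 6 of 11 synthesis genes were higher and 3 lower. Slc7a5 was higher by 1.76 (SE 0.15, adjusted p = 3.23e-06), Slc3a2 by 0.92, Slc1a4 by 1.42, Slc7a1 by 0.68 and Aldh18a1 by 1.36, and Phgdh by 2.34 and Psat1, both of serine synthesis, by 1.74. The 3 synthesis genes that were lower were Got1 (-0.91, adjusted p = 1.13e-05), Gpt2 (-0.95) and Cth (-2.24), the last 2 named to complete the count. Aminoacyl-tRNA synthetases differed here, with 5 of 10 higher and 1 lower, Yars by 0.54, Tars by 0.50 and Aars by 0.41. ER chaperones did not share a direction, with 3 of 17 higher and 2 lower and a median of 0.01, led by Txndc5 (0.94) and P4hb (0.61). Of the mitochondrial list 0 of 7 were higher and 6 lower by edgeR, where DESeq2 called 7 lower. With column totals in place of TMM scaling the median of all tested genes in this comparison moved from 0.0028 to 0.13, and the share of higher among all called genes from 50.3 to 62.3%. The counts, higher and lower, became 6 and 0 for transporters, 6 and 0 for the synthetases, 5 and 2 for chaperones and 0 and 6 for the mitochondrial list.

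Between atria and infarcted LV with PBS, 26 of 96 pathway genes were higher and 36 lower, against 26.2 and 26.1% of all tested genes, so the share that was higher was near that of all genes. Of 17 ER chaperones 2 were higher and 11 lower, among them Ero1l, an ER oxidase, by -1.30, Manf by -0.77 and Hsp90b1 by -0.61, while Txndc5 was higher by 0.55. Of 9 stress effectors 0 were higher and 6 lower by edgeR and by DESeq2, with Tnfrsf10b at -2.26, Gadd45a at -2.19 and Bbc3 at -1.16. Of 10 aminoacyl-tRNA synthetases 6 were higher and 0 lower by both tools, led by Aars (0.65), Yars (0.59) and Tars (0.47). The list of stress transcription factors did not move 1 way. Atf3 was at -3.42 (SE 0.17), Jdp2 at -0.96 and Cebpg at -0.42, while Cebpb was higher by 0.67 (adjusted p = 0.0336 by edgeR). The other genes of that list, Atf5, Cebpd and Nupr1, did not pass.

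With liraglutide against PBS, 0 of the tested pathway genes passed by edgeR in any region, and 11 of 96, 7 of 97 and 4 of 96 differed at an unadjusted p under 0.05 in atria, infarcted and non-infarcted LV, where 6.86, 5.24 and 4.34% of all tested genes did. DESeq2 called 1 of them in the atria, the transporter gene Slc38a2, named after its value was seen, and 0 in the other regions. In the atria all 17 ER chaperones had a log2 difference below 0, with a median of -0.15 (-0.25 with column totals, which moved all genes to -0.10) against -0.0028 over all tested genes, and the value furthest from 0 was -0.46 (Sdf2l1, named after its value was seen, adjusted p = 0.836). In the infarcted LV the median of these 17 was -0.10 and in the non-infarcted LV -0.02.

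How far the members moved together within groups was described by the correlation of their deviations from the group mean over the 18 libraries, which share depth and tissue makeup. It was highest for Atf4 with Ppp1r15a (r = 0.82), Xbp1 with Hspa5 (0.72) and Atf4 with Ddit3 (0.68), and lowest for Chac1 with Herpud1 (-0.51). Asns and Trib3 reached 0.56, and Hspa5 with Herpud1, the pair from the ER, 0.07.

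Across all 18 libraries and 10499 genes with a mean level of at least 5 CPM, genes most like the mean of the 10 standardized members included Nfkbiz (r = 0.95), Actg1 (0.95), Irf8 (0.95) and Pvr (0.94). For single members, the nearest pattern was that of Hsp90b1, the HSP90 chaperone of the ER, for Hspa5 (0.96), with Manf, another ER protein, also among its nearest 5 (0.91). Ppp1r15a ran closest to Maff (0.97) and Myc (0.97), Atf4 to Siah2 (0.97), Ddit3 to Phlda1 (0.95), Xbp1 to Trf (0.96), Asns to Ttc9 (0.97), Trib3 to Lgals3bp (0.93), Gdf15 to Ramp3 (0.97) and Herpud1 to Acss1 (0.92). Chac1 had the loosest neighbours, Nr1h3 (0.88) and the alanyl-tRNA synthetase gene Aars (0.88). These are descriptions over libraries that differ in region, and carry no test.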

How the data were processed

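Polyadenylated RNA of 18 tissue samples was sequenced after a stranded library kit, per the labels' protocols. The authors deposited 1 table of raw read counts per gene symbol. The submitters' processing notes name STAR 2.7.9a, DESeq2 with no version and the build mm10, and the strand setting of the counting is not given in the sources used here. Depth ran from 4280459 to 21853482 counts per library, so 3 counts equal 0.137 to 0.701 CPM. No 2 libraries of a group agreed within sampling noise (chi-square per degree of freedom 2.65 to 62.89 over 18 pairs). P-values measure the spread between samples labelled as biological replicates.

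The 9 comparisons of 2 groups with 6 libraries each were tested with edgeR 4.0.16 (limma 3.58.1, R 4.3.3): expression filter by group, TMM scaling, robust quasi-likelihood test, with p-values adjusted by Benjamini-Hochberg across every gene tested and called under 0.05. An SE is the size of the log2 difference divided by the square root of F. The 3 contrasts of the liraglutide effect between regions came from a fit of all 18 libraries. Alternatives were DESeq2 1.42.0, its size factors in edgeR, column totals, no filter, at least 1 CPM in 3 libraries, all 18 libraries (for contrasts, those of the regions concerned), the replicate number as a block, leaving out each library, and leaving out atrial liraglutide library 3 with atrial PBS library 2, which for the contrasts was chosen after seeing the data. The fits were tested on simulated data with 200 changed genes. Replicate numbers were taken as pairing the samples where the deviations of all same-numbered pairs correlated over 0.1: infarcted against non-infarcted LV (r = 0.151 to 0.155 with PBS, 0.101 to 0.136 with liraglutide) and atria against non-infarcted LV with PBS (0.119 to 0.152). The pairing thus comes from the data, since the labels do not say that a number marks an animal. It entered only the alternative with the replicate number as a block, and the main tests had no block. In the comparisons of liraglutide with PBS the 2 groups are mice given different treatments. Equal numbers there mark different animals, and the replicate block joins them by number only. In the other comparisons of regions, a lower correlation does not show that equal numbers mark different animals.

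The members and lists were chosen with earlier results of these data known. The text names all 10 members, up to 4 genes with the smallest p of each pathway list, and the genes with the highest Pearson correlation of log2(CPM + 1) to a member or to their mean. Coordinates are from GENCODE for GRCm38, promoters from RefSeq GRCm38.p6. BLAST 2.17.0 found no other gene with at least 95% identity over 100 bases to a member. Python 3.11.15 (numpy 2.4.6, pandas 2.3.3) was used for levels and motifs. One gene among those most like the members' mean is not reported here.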

Additional observations from a re-analysis of the deposited data

How the results depend on the processing

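Of the values of single genes under the alternatives run, 1146 kept their direction and side of the threshold, 31 lost and 15 gained a call, and 33 changed sign, all of them values that had not passed. Of the counts of called members, 174 stayed within 1.5 times. The count for liraglutide in the atria was 1 without atrial liraglutide library 3 and PBS library 2 together and 0 to 1 with each library left out, and that for atria against infarcted LV with liraglutide was 4 to 7 with each library left out. Without these 2 libraries the liraglutide difference in the atria was 0.17 for Asns and 0.15 for Trib3, and with all 18 libraries that of Ddit3 between atria and non-infarcted LV with liraglutide was 0.019. With each library left out, the log2 difference for liraglutide in the atria ran from -0.27 to 0.12 for Asns, -0.048 to 0.45 for Chac1 and -0.079 to 0.038 for Herpud1. In the infarcted LV it ran from -0.043 to 0.14 for Atf4, -0.034 to 0.37 for Chac1, -0.093 to 0.10 for Hspa5 and -0.080 to 0.041 for Trib3. In the non-infarcted LV it ran from -0.079 to 0.19 for Atf4, -0.29 to 0.029 for Ddit3, -1.08 to 0.25 for Gdf15, -0.10 to 0.38 for Hspa5, -0.15 to 0.30 for Ppp1r15a and -0.077 to 0.23 for Xbp1. Between infarcted and non-infarcted LV it ran from -0.024 to 0.28 for Chac1 and -0.019 to 0.46 for Hspa5 with PBS and from -0.038 to 0.24 for Hspa5 with liraglutide, and between atria and non-infarcted LV with liraglutide from -0.16 to 0.17 for Ddit3. The cause was not tested. The replicate block changed the call of Hspa5 given in the report and no other among the comparisons taken as paired. In the comparisons not taken as paired, the block ended the call of Trib3 between atria and infarcted LV with liraglutide (log2 difference -0.61, adjusted p = 0.0644). Over all genes, liraglutide in the atria gave 1 call by edgeR, 118 by DESeq2, 94 with all 18 libraries, 80 without these 2 libraries, 105 without liraglutide library 3, 3 with no filter, and 0 with column totals or the block. It gave 0, 4 and 35 calls by edgeR, DESeq2 and with no filter in the infarcted LV and 0, 2 and 5 in the non-infarcted LV. The contrasts that include the atria gave 0 calls by edgeR, 54 and 31 by DESeq2, 61 and 37 without these 2 libraries and 118 and 117 without liraglutide library 3, for non-infarcted and infarcted LV. Only Gdf15 in the atria, at 3 to 30 counts, reached the floor of 3 counts. Low counts also occurred elsewhere in shallow libraries, with Trib3 at 24 counts in non-infarcted PBS library 3 and 28 in atrial PBS library 3.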
